A study of Homo sapiens with 4 samples.

Results

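The 10 genes described here are IL8 (now CXCL8), CXCL1, CXCL2, CXCL3, CXCL5, CCL2, CCL20, IL6, TNFAIP3 and NFKBIA, chosen by symbol among the 18398 transcript rows of each library. They are chemokines, 1 cytokine and 2 feedback inhibitors that are known targets of the transcription factor NF-kB. Their mRNA was measured in Huh1 and Huh7, a pair of established human hepatocellular carcinoma (HCC) cell lines. The cells received 15 nM siRNA and were harvested 48 h later. The siRNA was either NCsiRNA, a control with no endogenous target, or CDCA8-1siRNA, which targets the mRNA of the chromosomal passenger protein CDCA8. Each cell line gave 1 library with each siRNA, 4 in all, and no untransfected cells were analysed here. CDCA8-1siRNA is 1 siRNA sequence, so an effect of losing CDCA8 and an effect of that sequence on other transcripts cannot be told apart.

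NF-kB is held in the cytoplasm by IkB proteins such as NFKBIA. Cytokine and danger receptors signal through adaptors to the IKK kinase, IkB is degraded, and the freed dimers bind kappaB sites in promoters. IL8, CXCL1, CXCL2, CXCL3 and CXCL5 carry the Glu-Leu-Arg (ELR) motif before the CXC cysteines and attract neutrophils through CXCR1 and CXCR2. CCL2 attracts monocytes through CCR2, CCL20 attracts CCR6-bearing lymphocytes and dendritic cells, and IL6 drives the hepatic acute-phase response. NFKBIA and TNFAIP3 (A20, a ubiquitin-editing enzyme) are induced by NF-kB and switch it off again. Chemokine mRNAs of this kind are short-lived, and AU-rich elements in the 3' untranslated region (UTR) recruit proteins that destabilize them.

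The promoters of the ELR chemokines are shown because these genes sit together on chromosome 4 and moved together between the cell lines. In GRCh38 (GENCODE release 29), IL8 lies at chr4:73740506-73743716 and CXCL1 at chr4:73869404-73871242, both on the plus strand with 4 exons. CXCL5 at chr4:73995642-73998779, CXCL3 at chr4:74036589-74038689 and CXCL2 at chr4:74097035-74099293 lie on the minus strand, also with 4 exons each. The 5 genes span 358.8 kb. The RefSeq start sites used below are not always the GENCODE ones. For IL8, CXCL2 and CXCL5 the bases shown run into the GENCODE span, and the kappaB matches of CXCL2 and CXCL5 lie inside it. The 150 bases before each RefSeq start site (GRCh38.p14) are given in the direction of transcription, with the kappaB match, the AP-1 motif TGANTCA and the TATA box TATAAA in capitals.
IL8 (chr4:73740419-73740568, plus strand): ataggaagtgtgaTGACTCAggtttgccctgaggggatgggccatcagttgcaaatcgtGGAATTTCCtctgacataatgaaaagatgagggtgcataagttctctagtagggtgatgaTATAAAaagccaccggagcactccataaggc
CXCL1 (chr4:73869243-73869392, plus strand): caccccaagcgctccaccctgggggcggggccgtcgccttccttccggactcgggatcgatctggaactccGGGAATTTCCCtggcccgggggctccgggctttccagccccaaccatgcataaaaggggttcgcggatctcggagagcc
CXCL2 (chr4:74099196-74099345, minus strand): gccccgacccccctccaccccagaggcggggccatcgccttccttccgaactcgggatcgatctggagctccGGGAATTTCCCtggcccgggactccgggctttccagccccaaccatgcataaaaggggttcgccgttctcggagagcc
CXCL3 (chr4:74038690-74038839, minus strand): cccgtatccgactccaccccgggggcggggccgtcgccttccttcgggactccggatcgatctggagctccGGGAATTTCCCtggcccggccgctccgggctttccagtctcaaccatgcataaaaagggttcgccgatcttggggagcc
CXCL5 (chr4:73998678-73998827, minus strand): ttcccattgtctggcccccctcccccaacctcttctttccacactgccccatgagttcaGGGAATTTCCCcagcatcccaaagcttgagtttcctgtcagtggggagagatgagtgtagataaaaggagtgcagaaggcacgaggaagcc

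In CXCL1, CXCL2, CXCL3 and CXCL5 the kappaB consensus matched on each strand within the 11 capital bases, at overlapping positions. IL8 carried the 9-base core GGAATTTCC from position -91 to -83 before the start site. It did not match the full 10-base consensus. IL8 also held an AP-1 match from -137 to -131 and a TATA box from -31 to -26. The kappaB match of CXCL1 lay from -79 to -70 on the plus strand and that of CXCL5 from -91 to -82.

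The other promoters with a window are shown by the 30 bases around each kappaB match, again 5′ to 3′ along the gene and with the match in capitals.
CCL20 (chr2:227813753-227813782, plus strand): tgatcaatggGGAAAACCCCatgtggcaac
IL6 (chr7:22727117-22727146, plus strand): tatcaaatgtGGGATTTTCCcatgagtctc
TNFAIP3, upstream match (chr6:137867182-137867211, plus strand): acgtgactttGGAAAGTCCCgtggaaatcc
TNFAIP3, downstream match (chr6:137867194-137867223, plus strand): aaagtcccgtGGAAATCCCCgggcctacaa
NFKBIA (chr14:35404811-35404840, minus strand): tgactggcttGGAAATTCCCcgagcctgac

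CCL20, IL6, TNFAIP3 and NFKBIA also matched the consensus between positions -81 and -46, and TNFAIP3 held 2 matches. Both TNFAIP3 matches lie inside its GENCODE span, which starts at chr6:137867188, upstream of the RefSeq start site. Of the 9 genes with a promoter window, 8 held the kappaB consensus in the window from 250 bases before to 50 after the start, against 11.3% of all 35116 RefSeq windows of that length. The core GGAATTTCC, which lies inside the consensus in CXCL1, CXCL2, CXCL3, CXCL5 and NFKBIA, was present in 6 of 9 and in 0.461% of all windows. TGANTCA was found in 1 of 9 (IL8) and in 7.71% of all windows, and TATAAA in 3 of 9 (IL8, CCL20, NFKBIA) and in 11.5%. All motifs were searched on both strands. The genes were chosen as NF-kB targets, so these shares describe the choice, and a match is not evidence that a factor was bound.

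**Figure D1:**
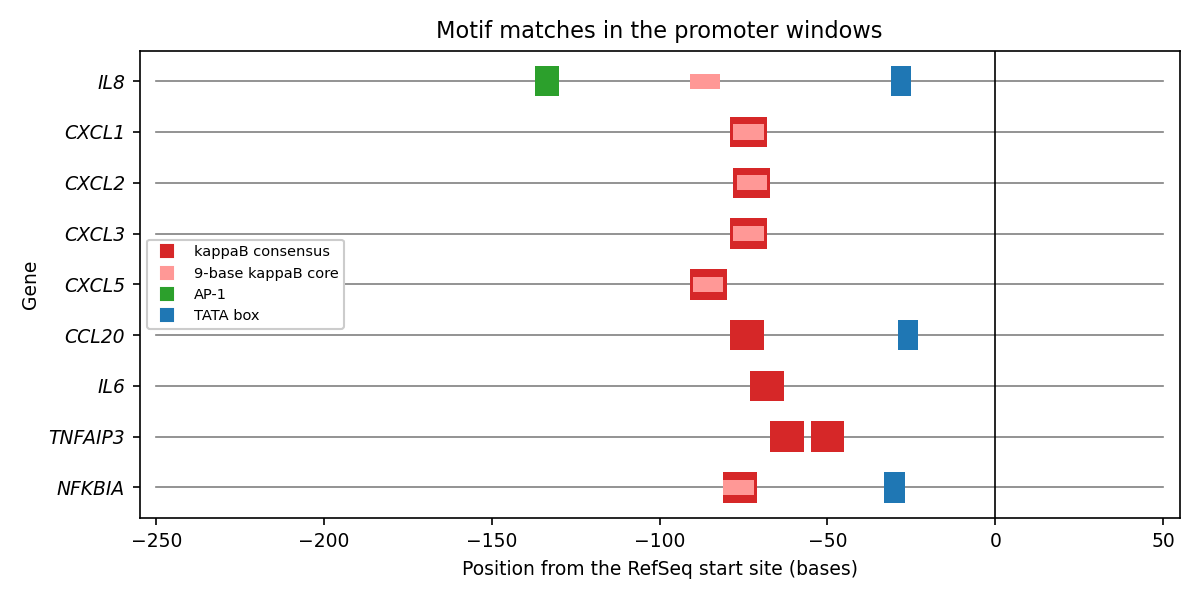
Motif matches in the promoter windows of 9 genes, by position in bases from the RefSeq start site (0 on the axis); red boxes are kappaB consensus matches, pink boxes the 9-base core, green AP-1 and blue TATA boxes. The kappaB consensus or core matches of all 9 genes sit within the 91 bases before the start site.

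CDCA8 mRNA was measured first, as the target of the siRNA. It was 24.1 RPKM (a read count divided by transcript length and by library depth) with NCsiRNA and 5.86 with CDCA8-1siRNA in Huh1, and 51.5 and 7.36 RPKM in Huh7. The libraries held an estimated 12197606 to 13384836 reads. With 1 library per condition, the spread between cultures could not be measured. The 95% intervals below are counting intervals, from the number of reads behind each value, and hold no culture error. An RPKM level in a whole culture cannot tell a change per cell from a change in the share of cells expressing the gene.

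IL8 was higher with the knockdown in both lines and had the largest change over both lines of the 9 members tested. Its level was 7.01 RPKM in Huh1 with NCsiRNA, 24.7 in Huh1 with CDCA8-1siRNA, 84.9 in Huh7 with NCsiRNA and 151 in Huh7 with CDCA8-1siRNA. Each CDCA8-1siRNA library was above the NCsiRNA library of its line, and both Huh7 libraries were above both Huh1 libraries. The RPKM ratio of CDCA8-1siRNA to NCsiRNA was 3.53 in Huh1 (95% counting interval 2.95 to 4.23, from about 160 and 556 reads). In Huh7 it was 1.78 (1.68 to 1.89, from about 1766 and 3165 reads). On the log2(RPKM + 1) scale, which shrinks the changes of low genes, the differences were 1.68 in Huh1 and 0.83 in Huh7. IL8 ranked 2nd of 10940 genes by this difference in Huh1 and 204th of 11565 in Huh7.

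CXCL1, which binds CXCR2, measured 0.744 and 1.23 RPKM in Huh1 and 57.6 and 97.8 RPKM in Huh7, with NCsiRNA and CDCA8-1siRNA respectively. The ratio was 1.66 in Huh1 (0.742 to 3.89, from about 11 and 18 reads) and 1.70 in Huh7 (1.55 to 1.86, from about 771 and 1316 reads). The Huh1 interval includes 1, so a difference was not detectable at that depth, whereas the Huh7 interval lies above 1.

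Across both lines, limma, fitted to all 4 libraries with terms for siRNA and cell line, called IL8 and CXCL1 higher with CDCA8-1siRNA. IL8 rose by 1.25 log2 units (SE 0.172, limma adjusted p = 0.00777, higher in 2 of 2 lines). CXCL1 rose by 0.56 log2 units (SE 0.124, limma adjusted p = 0.0366, higher in 2 of 2 lines). Its Huh1 rise, from about 11 to 18 reads, had a counting interval that included 1. Of the 9 genes tested, 2 were called higher and 0 lower. At the same threshold (adjusted p under 0.05) 3.74% of all 12148 genes tested were called higher and 6.39% were called in either direction. The median log2 change was 0.22 over these 9 genes and 0.03 over all genes tested. The fit leaves 1 residual degree of freedom, and both limma calls were lost without the filter on low values (0 of 10 genes, IL6 included), without the mean-variance trend (0 of 9) or without the cell line covariate (0 of 9). At an unadjusted limma p under 0.05 these 3 fits gave 2, 2 and 0 of the genes. Over all genes they gave 2440 of 17039, 2490 of 12148 and 75 of 12148.

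**Figure D2:**
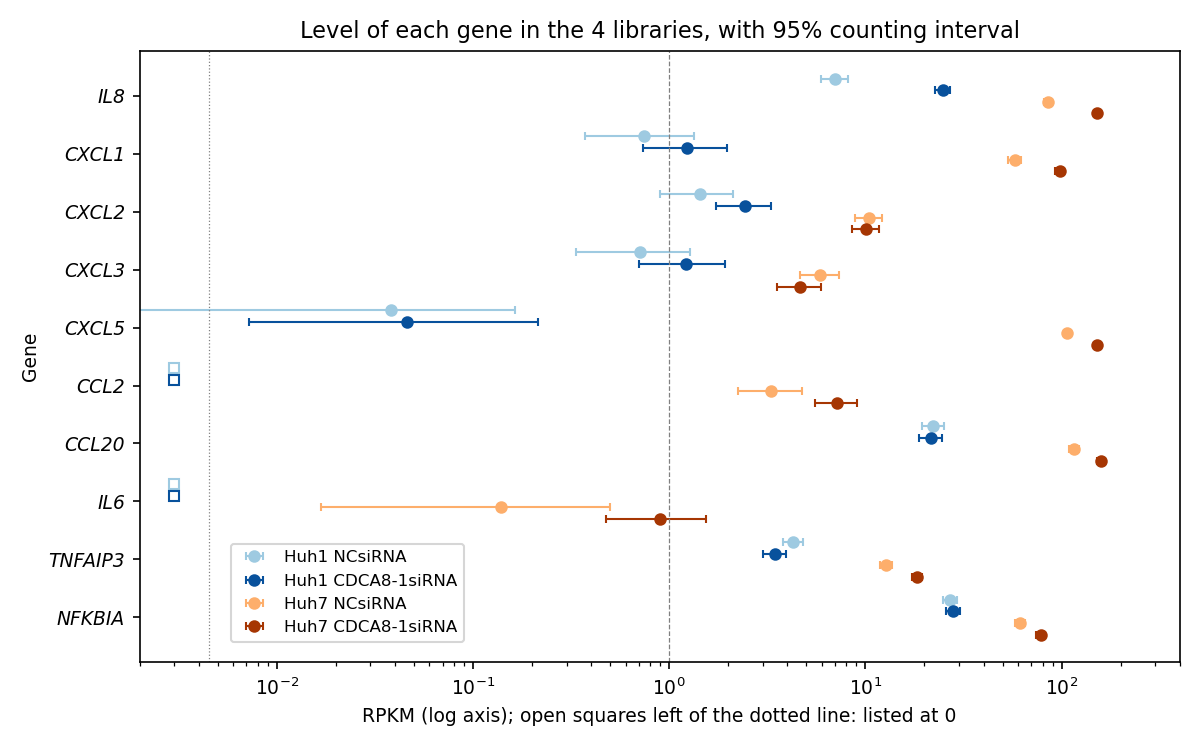
Level of each gene in the 4 libraries in RPKM on a log axis, 1 point per library with bars for the 95% counting interval; open squares mark values listed at 0 and the dashed line is 1 RPKM. The Huh7 points lie to the right of the Huh1 points for every gene, and IL8 runs from 7.01 to 151 RPKM.

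CXCL2 and CXCL3, CXCR2 ligands whose sequences are close to that of CXCL1, did not follow it in Huh7. CXCL2 measured 1.43 and 2.43 RPKM in Huh1 and 10.4 and 10.03 RPKM in Huh7, with NCsiRNA and CDCA8-1siRNA respectively. Its ratio was 1.70 in Huh1 (1.002 to 3.02) and 0.962 in Huh7 (0.764 to 1.21). CXCL3 measured 0.713 and 1.22 RPKM in Huh1 and 5.90 and 4.63 RPKM in Huh7. Its ratio was 1.71 in Huh1 (0.746 to 4.22) and 0.785 in Huh7 (0.554 to 1.12), so neither interval excludes 1. Over both lines the log2 changes were 0.22 for CXCL2 (limma adjusted p = 0.433) and 0.04 for CXCL3 (limma adjusted p = 0.920). Of the stretches of 50 bases in these transcripts, 5.73% of CXCL1, 9.24% of CXCL2 and 5.26% of CXCL3 were shared among them, so the split of some reads between the 3 genes is uncertain.

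CXCL5, also a CXCR2 ligand, was almost absent from Huh1 and among the most abundant chemokines in Huh7. It measured 0.0382 and 0.0463 RPKM in Huh1, from about 1 and 2 reads, against 107 and 151 RPKM in Huh7, from about 3313 and 4708 reads. In Huh7 the ratio of CDCA8-1siRNA to NCsiRNA was 1.41 (1.35 to 1.48), while in Huh1 the interval ran from 0.106 to 120 and no direction can be read. Over both lines the log2 change was 0.25 (limma adjusted p = 0.308). The summed RPKM of the 5 ELR chemokines was 9.94 and 29.7 in Huh1 and 266 and 415 in Huh7, ratios of 2.99 and 1.56. IL8 made up 70.6% of that sum in Huh1 with NCsiRNA and 83.4% with CDCA8-1siRNA. In Huh7 with NCsiRNA, CXCL5 held 40.3%. With CDCA8-1siRNA, IL8 and CXCL5 had overlapping levels, and IL8 held 36.5%.

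CCL2 and CCL20 stand at chr17:34255285-34257203 and chr2:227813854-227817534 of GRCh38, each on the plus strand. CCL2 was listed at 0 in both Huh1 libraries, where 3 reads would have given 0.303 and 0.307 RPKM. In Huh7 it measured 3.29 RPKM with NCsiRNA and 7.20 with CDCA8-1siRNA, a ratio of 2.19 (1.38 to 3.44, from about 30 and 65 reads). CCL20 measured 22.1 and 21.5 RPKM in Huh1 and 115 and 159 RPKM in Huh7. The ratio of CDCA8-1siRNA to NCsiRNA was 0.974 in Huh1 (0.806 to 1.17) and 1.38 in Huh7 (1.27 to 1.49). The Huh7 interval lies above 1 and above the Huh1 interval, by counting error alone. Over both lines the log2 changes were 0.47 for CCL2 (limma adjusted p = 0.259) and 0.21 for CCL20 (limma adjusted p = 0.349).

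IL6 (chr7:22727147-22732000, plus strand, 5 exons) was the least abundant of the 10 genes in Huh7. It was listed at 0 in both Huh1 libraries, where 3 reads would have given 0.1896 and 0.1924 RPKM. In Huh7 it measured 0.138 RPKM with NCsiRNA and 0.895 with CDCA8-1siRNA, from about 2 and 13 reads. The ratio was 6.46, with a counting interval from 1.46 to 59.0. IL6 stayed under 1 RPKM in every library and was therefore not tested by limma.

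Of the feedback inhibitors, NFKBIA (chr14:35401511-35404746, minus strand, 6 exons) measured 27.1 and 28.0 RPKM in Huh1 and 61.4 and 78.2 RPKM in Huh7. Its ratio was 1.03 in Huh1 (0.919 to 1.16) and 1.28 in Huh7 (1.18 to 1.38). TNFAIP3 (chr6:137867188-137883311, plus strand, 9 exons) measured 4.28 and 3.46 RPKM in Huh1 and 12.7 and 18.3 RPKM in Huh7. Its ratio was below 1 in Huh1, at 0.807 (0.673 to 0.971), and above 1 in Huh7, at 1.44 (1.31 to 1.58). Over both lines the log2 changes were 0.20 for NFKBIA (limma adjusted p = 0.299) and 0.12 for TNFAIP3 (limma adjusted p = 0.710).

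**Figure D3:**
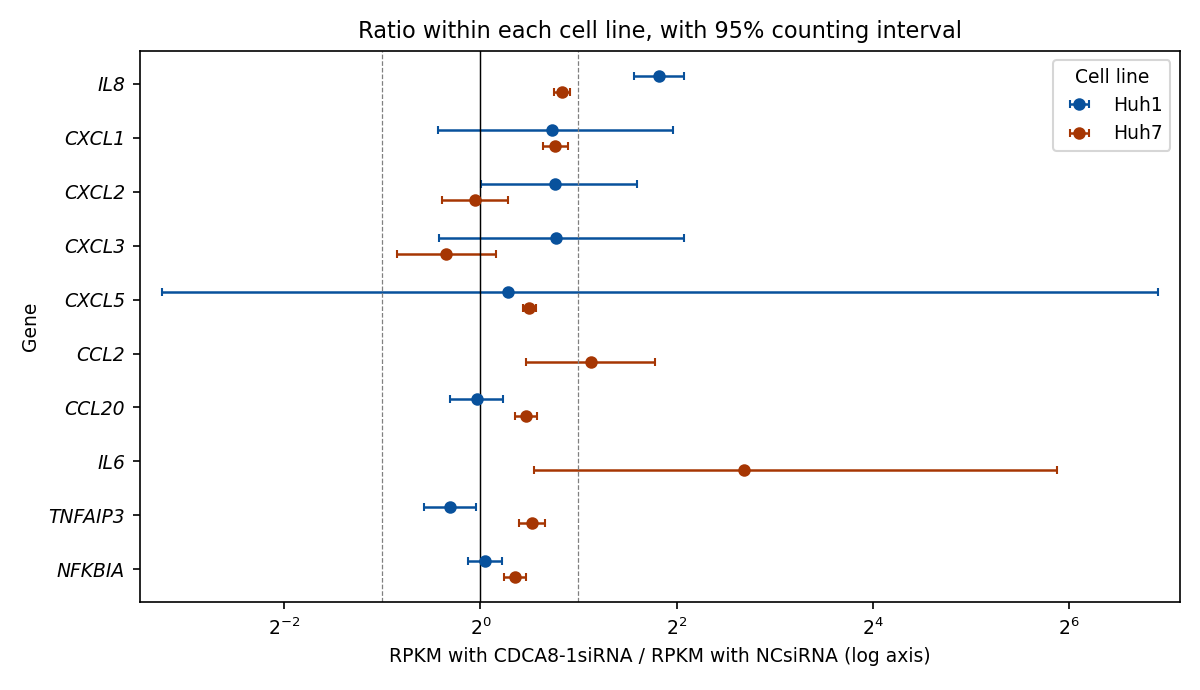
RPKM ratio of CDCA8-1siRNA to NCsiRNA within each cell line on a log axis, with 95% counting intervals; dashed lines mark 2-fold, and CCL2 and IL6 have no Huh1 point because they were listed at 0. IL8 in Huh1 lies at 3.53, beyond 2-fold, and the Huh7 intervals of CXCL2 and CXCL3 cross 1.

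Within Huh7, the counting interval lay above 1 for 7 of the 9 genes with at least 1 RPKM in a library, against 29.8% of 11207 such genes with a transcript length, and crossed 1 for CXCL2 and CXCL3. IL6, under 1 RPKM, also had an interval above 1. Within Huh1, the interval lay above 1 for 2 of 7 genes (IL8 and CXCL2), against 25.6% of 10604. The CXCL2 interval began at 1.002. It lay below 1 for TNFAIP3 and crossed 1 for CXCL1, CXCL3, CCL20 and NFKBIA. CXCL5, under 1 RPKM in Huh1, also had an interval that crossed 1. On the log2(RPKM + 1) scale at 2-fold, 1 of the 7 genes with at least 1 RPKM in a Huh1 library was higher with CDCA8-1siRNA (IL8), against 0.32% of 10940 genes. In Huh7, 0 of 9 reached 2-fold, against 0.873% of 11565 genes higher by that much. The median difference was 0.36 over the 7 genes in Huh1 and 0.49 over the 9 in Huh7, beside 0.02 and 0.03 over all genes that passed. In Huh1, CXCL1 and CXCL3 reached 1 RPKM only with CDCA8-1siRNA, so their direction there followed from the filter. The Huh1 median is the value of CXCL1 itself. The other Huh1 values were 1.68 for IL8, 0.50 for CXCL2, 0.05 for NFKBIA, -0.04 for CCL20 and -0.25 for TNFAIP3.

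Whether the change differed between the lines could not be tested with 1 library per condition. The log2 difference in Huh7 minus that in Huh1 was -0.86 for IL8, -0.55 for CXCL2 and -0.67 for CXCL3, the members with the larger change in Huh1. It was 0.39 for CXCL1, whose RPKM ratios were close to each other (1.66 and 1.70), 0.49 for CCL20, 0.74 for TNFAIP3 and 0.30 for NFKBIA. With a pseudocount of 0.1 RPKM it was 0.10 for CXCL1 and -1.04 for CXCL3. For CXCL5 (0.48) and CCL2 (0.93) the Huh1 level was at or near 0.

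**Figure D4:**
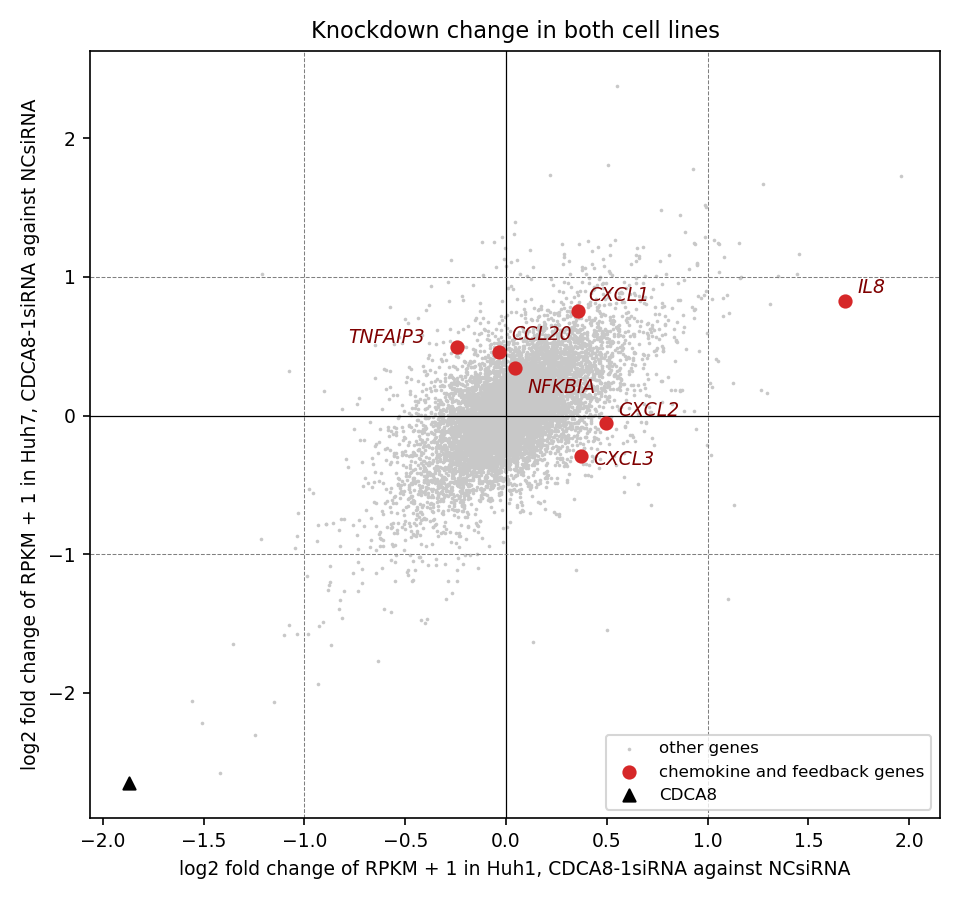
Change with the knockdown on the log2(RPKM + 1) scale, in Huh1 (horizontal) and Huh7 (vertical); each grey point is a gene with at least 1 RPKM in a library of both lines, red points are 7 of the 10 genes and the triangle is CDCA8. IL8 lies at 1.68 and 0.83, while CXCL2 and CXCL3 lie at or below 0 on the Huh7 axis.

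Every one of the 10 genes had a higher value in Huh7 than in Huh1 with either siRNA. For IL6 with NCsiRNA this was about 2 reads against 0, and the counting intervals of the levels overlapped. With NCsiRNA, the RPKM ratio of Huh7 to Huh1 was 12.1 for IL8 (10.3 to 14.3) and 77.5 for CXCL1 (42.7 to 155). It was 7.30 for CXCL2 (4.75 to 12.0), 8.28 for CXCL3 (4.36 to 18.3) and 5.22 for CCL20 (4.53 to 6.02). For CXCL5 it was 2805, with a counting interval from 652 to 143600 because Huh1 gave about 1 read. The smallest ratios were those of the feedback inhibitors, 2.97 for TNFAIP3 (2.58 to 3.43) and 2.27 for NFKBIA (2.05 to 2.51). CCL2 and IL6 were listed at 0 in Huh1, and no fold is given.

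With CDCA8-1siRNA, the same ratio was 6.12 for IL8, 4.14 for CXCL2 and 3.81 for CXCL3, below the values with NCsiRNA. It was 79.2 for CXCL1, 7.39 for CCL20, 5.30 for TNFAIP3 and 2.79 for NFKBIA, above them. All 9 genes tested were called higher in Huh7 by limma, against 42.5% of 12148 genes called in that direction. CXCL5 and CCL2 passed the minimum of 1 RPKM only through Huh7, so for them the direction followed from the filter. With at least 1 RPKM required in both lines, 7 of 7 members were called higher in Huh7, beside 4045 of 10357 genes. The line coefficient was 2.99 log2 units for IL8 (SE 0.172, limma adjusted p = 9.757e-07) and 5.27 for CXCL1 (SE 0.124, limma adjusted p = 6.415e-09). CXCL1 ranked 22nd of 12148 genes by this coefficient. For CXCL5 it was 6.94, given as a description only. The median coefficient was 2.57 over the 9 genes, CXCL5 and CCL2 included. Over all genes tested it was 0.14, a general shift that quantile normalization brought to -0.01 and upper quartile scaling to 0.05. The 2 libraries of a line shared their cells and differed in siRNA, so these p-values measure the spread around an additive fit.

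The order of the levels also differed between the lines. In Huh1 with NCsiRNA, NFKBIA (27.1 RPKM) and CCL20 (22.1) led with overlapping counting intervals, followed by IL8 (7.01), TNFAIP3 (4.28), CXCL2 (1.43), CXCL1 (0.744), CXCL3 (0.713) and CXCL5 (0.0382). The intervals of CXCL2, CXCL1 and CXCL3 overlapped from one to the next. With CDCA8-1siRNA, IL8 (24.7 RPKM) moved up beside NFKBIA (28.0) and CCL20 (21.5), with overlapping intervals. In Huh7 with NCsiRNA, CCL20 (115 RPKM) and CXCL5 (107) led and overlapped, ahead of IL8 (84.9), NFKBIA (61.4) and CXCL1 (57.6), the last pair again overlapping. With CDCA8-1siRNA, CCL20 (159), IL8 (151) and CXCL5 (151) overlapped at the top.

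Neighbours in the chromosome 4 cluster were not all expressed. CXCL6, an ELR chemokine between IL8 and CXCL1, measured 0.0901 and 0.366 RPKM in Huh1 and 17.4 and 16.8 RPKM in Huh7. The platelet chemokine gene PF4, between CXCL1 and CXCL5, measured at most 1.21 RPKM in any library. PF4V1, between CXCL6 and CXCL1, and PPBP, between PF4 and CXCL5, were at most 0.111 and 0.0309 RPKM. CXCL6 was higher in Huh7, as the ELR chemokines were, and its Huh7 values with both siRNAs were close.

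The genes with the profiles closest to the 3 most abundant members were found over the 4 libraries, as the Euclidean distance of log2(RPKM + 1) values centred on each gene's mean, among 8683 genes. The closest to CCL20 were RAB6B (0.15), KLHDC8B (0.19) and DZIP3 (0.20). The closest to IL8 were CYR61 (0.46), LUM (0.57) and ANKRD1 (0.60). CYR61 measured 8.83 and 24.0 RPKM in Huh1 and 113 and 229 RPKM in Huh7. The closest to CXCL5 were COL1A1 (0.30), EFEMP1 (0.46) and VGLL3 (0.55). A likeness over 4 values is a weak description.

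Markers of other liver cell types were read from the same libraries. The 7 stellate cell and fibroblast markers summed to 12.1 and 25.9 RPKM in Huh1 and 284 and 378 RPKM in Huh7, and all 5 tested were called higher in Huh7. COL1A1, COL1A2, COL3A1 and ACTA2 passed 1 RPKM only through Huh7, so for them the direction followed from the filter. COL1A1 was 107 and 125 RPKM in Huh7 and LUM 143 and 190, while DCN was at most 0.406 RPKM in any library. LUM was also called higher with CDCA8-1siRNA, by 0.72 log2 units (limma adjusted p = 0.0227). Their part in the difference between the lines was not tested.

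The 8 leukocyte and Kupffer cell markers summed to 25.4 and 20.0 RPKM in Huh1 and 15.1 and 27.9 RPKM in Huh7, with PTPRC at most 0.417, CSF1R at most 0.0285 and CD3E at most 0.162 RPKM. LYZ was called higher with CDCA8-1siRNA, by 0.77 log2 units (limma adjusted p = 0.0217), and higher in Huh7 (line coefficient 2.95). CD68, the other tested marker of this list, went the other way between the lines (-2.13), with 23.3 and 16.5 RPKM in Huh1 and 3.71 and 3.73 RPKM in Huh7, and changed by -0.23 log2 units with the knockdown (limma adjusted p = 0.353). Of the endothelial markers, CDH5 and TEK were listed at 0 in all 4 libraries. Of the 11 hepatocyte and hepatoma markers, limma called 7 lower with CDCA8-1siRNA and 0 higher. Of all 12148 genes tested, it called 322 lower and 454 higher. Among the 7, ALB fell by 0.53, APOB by 0.70 and HNF4A by 0.52 log2 units. The sum of the 11 markers was 6478 RPKM with NCsiRNA and 5519 with CDCA8-1siRNA in Huh1, and 3517 and 2530 in Huh7. Its part in the chemokine values was not tested.

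Genes that act upstream of NF-kB were read from the same fit. At an unadjusted limma p under 0.05, that fit gave 2767 of all 12148 genes in either direction. Of the 3 activating ligands tested, limma called 0, with 1 at an unadjusted p under 0.05. IL18, which signals through the adaptor MYD88, measured 49.6 and 91.0 RPKM in Huh1 and 64.0 and 72.9 in Huh7 (log2 change 0.52, limma adjusted p = 0.0677). Of the 9 upstream receptors tested, limma called 0 for siRNA, also with 0 at an unadjusted p under 0.05. Between the lines, 7 of the 9 receptors were called lower and 1 higher in Huh7. Of all 12148 genes tested, 3492 were called lower and 5162 higher in Huh7. TNFRSF1B, TLR3 and TLR6 passed 1 RPKM only through Huh1, so for them the direction followed from the filter. LTBR, the lymphotoxin beta receptor, measured 62.5 and 63.2 RPKM in Huh1 and 22.4 and 25.9 RPKM in Huh7. TNFRSF12A, the TWEAK receptor, measured 78.1 and 119 RPKM in Huh1 and 41.3 and 36.3 RPKM in Huh7.

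Of the 27 adaptors and kinases leading to IKK that were tested, 1 rose and 1 fell, beside 6.39% of all genes called in either direction. At an unadjusted limma p under 0.05, 6 were higher and 1 lower, beside 2767 of all 12148 genes in either direction. TRAF3, which restrains the noncanonical pathway, measured 2.45 and 3.91 RPKM in Huh1 and 5.16 and 10.4 RPKM in Huh7, and rose by 0.70 log2 units (limma adjusted p = 0.0240). TAB3, a partner of the kinase TAK1, measured 13.3 and 8.398 RPKM in Huh1 and 28.8 and 10.3 RPKM in Huh7, and fell by 1.003 log2 units (limma adjusted p = 0.0156). Of the 4 NF-kB subunits tested, limma called 0 for siRNA, also with 0 at an unadjusted p under 0.05. RELA measured 28.5 and 32.1 RPKM in Huh1 and 36.1 and 37.8 RPKM in Huh7, a change of 0.11 log2 units (limma adjusted p = 0.510). NFKB2 measured 25.3 and 23.0 RPKM in Huh1 and 23.0 and 39.5 RPKM in Huh7.

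**Figure D5:**
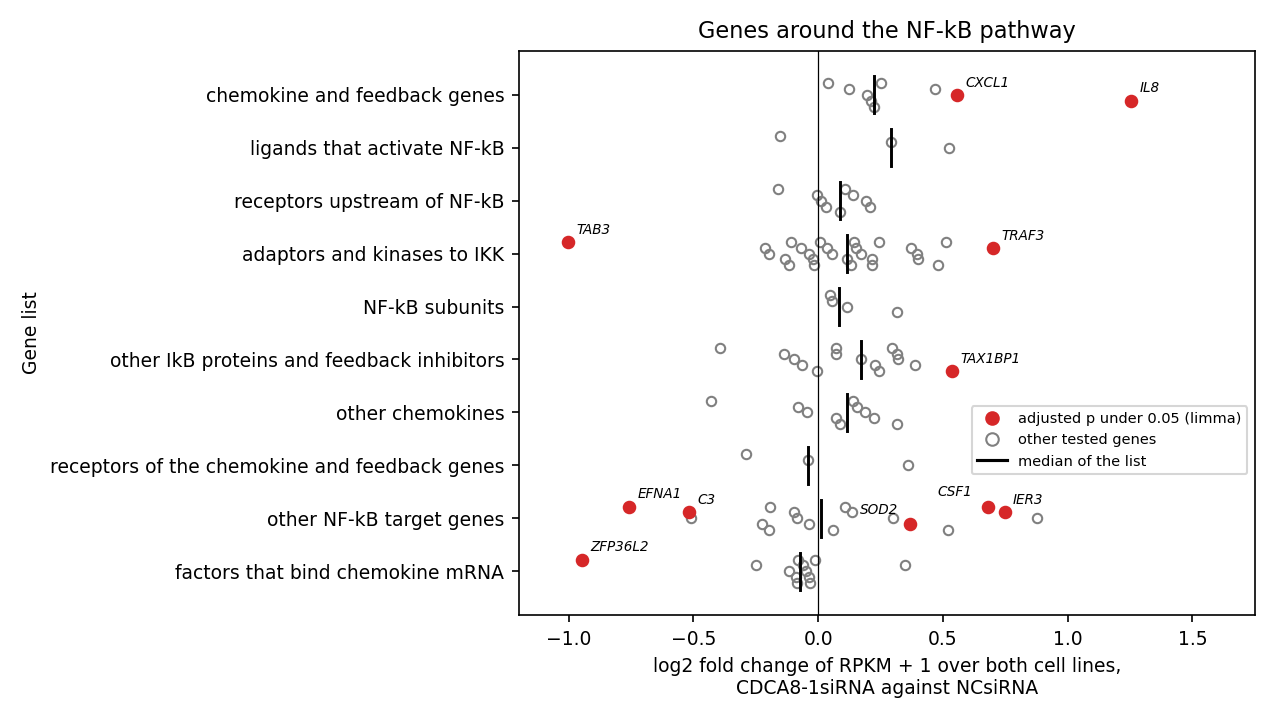
Change with CDCA8-1siRNA over both cell lines on the log2(RPKM + 1) scale for each tested gene in 10 lists around NF-kB; red points have a limma adjusted p under 0.05, open circles are the other tested genes and black bars the list medians. IL8 at 1.25 lies farthest to the right, TAB3 at -1.003 farthest to the left.

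Of the 15 other IkB proteins and feedback inhibitors tested, 1 rose, beside 454 of all 12148 genes tested. At an unadjusted limma p under 0.05, 4 were higher and 1 lower, beside 2767 of all 12148 genes in either direction. TAX1BP1, a ubiquitin-binding partner of TNFAIP3, measured 97.4 and 136 RPKM in Huh1 and 55.1 and 83.7 RPKM in Huh7, and rose by 0.54 log2 units (limma adjusted p = 0.0113). RNF11, also of the A20 complex, changed by 0.31 (limma adjusted p = 0.0771). The list median was 0.17, beside 0.22 for the chemokine and feedback genes.

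Of the 36 other chemokines, 10 reached 1 RPKM in a library and limma called 0 for siRNA, with 1 at an unadjusted p under 0.05. A further 9 were listed at 0 in all 4 libraries. Between the lines, 5 of the 10 were called higher in Huh7 and 4 lower, beside 5162 and 3492 of all 12148 genes tested. PF4, CXCL6, CXCL10 and XCL1 passed 1 RPKM only through Huh7, and CCL14 and CCL28 only through Huh1. For these the direction followed from the filter. CX3CL1 (fractalkine) measured 1.10 and 0.764 RPKM in Huh1 and 35.0 and 22.6 RPKM in Huh7, and CXCL10, a CXCR3 ligand, 0.0614 and 0 RPKM in Huh1 and 8.29 and 11.8 RPKM in Huh7. CCL15, which binds CCR1, was lower in Huh7, with 76.7 and 82.7 RPKM in Huh1 and 1.44 and 1.13 RPKM in Huh7. CXCL16 measured 67.9 and 83.9 RPKM in Huh1 and 42.6 and 30.6 RPKM in Huh7. Of the 8 receptors of the members, 3 were tested and limma called 0 for siRNA, with 2 at an unadjusted p under 0.05. IL6R was 22.1 and 33.7 RPKM in Huh1 and 0.530 and 0.680 RPKM in Huh7, a line coefficient of -4.14. The gene passed 1 RPKM only through Huh1, so this direction followed from the filter. IL6ST, its signalling partner, was 24.7 to 34.1 RPKM in the 4 libraries.

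Of the 18 other NF-kB target genes tested, 3 rose and 2 fell with the knockdown, beside 454 and 322 of all 12148 genes tested. The list median was 0.01. At an unadjusted limma p under 0.05, 6 were higher and 2 lower, beside 2767 of all 12148 genes in either direction. IER3, an early response gene, measured 26.1 and 46.3 RPKM in Huh1 and 33.0 and 53.9 RPKM in Huh7, and rose by 0.75 (limma adjusted p = 0.00495). CSF1, the macrophage growth factor, rose by 0.68 (limma adjusted p = 0.0230) and SOD2, the mitochondrial superoxide dismutase, by 0.37 (limma adjusted p = 0.0405). Complement C3 fell by 0.52 (limma adjusted p = 0.0157) and the ephrin EFNA1 by 0.76 (limma adjusted p = 0.0139).

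AU-rich elements were counted as ATTTA pentamers in the 3'UTR of the GENCODE transcript. The 30 bases with the most pentamers are shown for the ELR chemokines other than CXCL5 and for IL6, the member with the highest density, with ATTTA in capitals (GRCh38).
IL8 (chr4:73743108-73743137, plus strand): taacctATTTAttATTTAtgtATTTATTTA
CXCL1 (chr4:73870665-73870694, plus strand): cttaggagaagtcttctATTTATTTATTTA
CXCL2 (chr4:74097590-74097619, minus strand): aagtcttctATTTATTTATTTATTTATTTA
CXCL3 (chr4:74037090-74037119, minus strand): ttacgagggttctacttATTTAtgtATTTA
IL6 (chr7:22731697-22731726, plus strand): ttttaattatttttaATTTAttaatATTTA

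The density was 14.1 pentamers per kb in IL6, 13.9 in CXCL2, 10.4 in CXCL3, 7.19 in IL8 and 7.08 in CXCL1. It was lowest in TNFAIP3 (2.51) and CCL2 (2.66). All 10 genes were above the median of 1.68 per kb over 11520 genes, and their own median was 6.87, while 29.5% of genes had no ATTTA. CXCL2 and CXCL3 had the highest densities of the ELR chemokines, and IL8 and CXCL1 were close to each other.

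Of the 12 factors that bind chemokine mRNA, 1 fell with the knockdown and 0 rose, beside 322 and 454 of all 12148 genes tested. At an unadjusted limma p under 0.05 both counts were 1, beside 2767 of all 12148 genes in either direction. ZFP36L2, which binds ATTTA-rich elements and promotes decay, measured 16.1 and 9.12 RPKM in Huh1 and 29.4 and 12.8 RPKM in Huh7. It fell by 0.95 log2 units (limma adjusted p = 0.0050, lower in 2 of 2 lines). ZFP36L1 went the other way, with 53.0 and 57.1 RPKM in Huh1 and 29.3 and 44.7 RPKM in Huh7. Its log2 change over both lines was 0.35 (limma adjusted p = 0.131). That of ZFP36 was -0.06 (limma adjusted p = 0.790). HNRNPD (AUF1) measured 108 and 108 RPKM in Huh1 and 189 and 167 RPKM in Huh7, and KHSRP 60.4 and 62.7 RPKM in Huh1 and 108 and 92.2 RPKM in Huh7. Both were higher in Huh7 by the line coefficient, at 0.70 and 0.69.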

How the data were processed

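Each of the 4 deposited tables lists 18398 RefSeq transcripts with a value whose unit the authors do not name. The deposited values behave as RPKM, and the unit was deduced from that. The kit was Illumina TruSeq RNA, and the submitters' processing notes name CASAVA 1.8.2, TopHat2 2.0.9 and the build hg19. The steps that turned alignments into the deposited RPKM are not given in the sources used here. Whether strand was used is not stated. The 4 libraries list 2568 to 3169 rows at 0, and none of 12 genes that every cell uses was among them.

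Reads behind a value were estimated from RPKM, the GENCODE release 29 transcript length (found for 17768 rows and missing for 630) and the value of 1 read. Between 32.8% and 36.4% of low values per library came out within 0.05 of a whole read, so read numbers are approximate. Intervals at 95% are exact Poisson for levels and Clopper-Pearson for ratios. They cover counting error only.

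Differences were taken on log2(RPKM + 1). Genes with at least 1 RPKM in 1 of the 4 libraries were tested with limma 3.58.1 (R 4.3.3, lmFit, eBayes with a trend, siRNA and cell line as terms), with Benjamini-Hochberg adjustment over 12148 genes. This replaces the method named in the study, whose design could not be rebuilt from 1 library per condition. Differences within a line used genes with at least 1 RPKM in 1 of its 2 libraries and had no test. The limma step for siRNA was tested on simulated reads, in which the changed genes moved alike in both lines. Their set change was larger than that of IL8 over both lines. The other steps were not tested in this way. Python 3.11.15 with numpy 2.4.6, pandas 2.3.3, scipy 1.17.1 and matplotlib 3.10.9 was used. Promoters are RefSeq windows on GRCh38.p14, and 9 of the 10 genes matched by symbol or current symbol.

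The members, gene lists, cell type markers and motifs were chosen with earlier results of these data known. The core GGAATTTCC was added later, with the IL8 promoter already known. Named genes are the 10 members, CDCA8, up to 5 genes per list with the largest change among those called for siRNA, then, if under 2, those with the highest mean RPKM, and the 3 genes closest to each of the 3 most abundant members. Other markers, CX3CL1, CXCL10, ZFP36, ZFP36L1 and the chromosome 4 neighbours were named after their values were seen. Alternatives were a pseudocount of 0.1 RPKM, no filter, a minimum of 5 RPKM, quantile and upper quartile scaling, no trend, no cell line or siRNA covariate and, added after seeing the data, at least 1 RPKM in both cell lines. A planned description of the proteins was not run.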

Additional observations from a re-analysis of the deposited data

Results flagged for a closer look

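For 4 of the genes, the difference between CDCA8-1siRNA and NCsiRNA on the log2(RPKM + 1) scale had opposite signs in the 2 cell lines. CXCL2 was 0.50 higher in Huh1 and -0.05 in Huh7, so that Huh7 minus Huh1 was -0.547. CXCL3 was 0.37 higher in Huh1 and -0.29 in Huh7, a difference of -0.665. CCL20 was -0.04 in Huh1 and 0.46 in Huh7, a difference of 0.495. TNFAIP3 was -0.25 in Huh1 and 0.49 in Huh7, a difference of 0.739. These differences were not tested, as each rests on 1 library per condition. The counting interval of the RPKM ratio included 1 for CCL20 in Huh1, for CXCL2 in Huh7 and for CXCL3 in both lines. Of these 4 genes, only TNFAIP3 had intervals that left out 1 in both lines, below it in Huh1 and above it in Huh7.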

How the results depend on the processing

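The count of genes called for siRNA was 776 and went to 1260 with quantile normalization, 1327 with upper quartile scaling, 45 without the mean-variance trend, 0 without the filter on low values (2440 at an unadjusted limma p under 0.05) and 0 without the cell line covariate (75 unadjusted). The members called went from 2 to 0 in the last 3 of these, with 2, 2 and 0 at an unadjusted limma p under 0.05. The limma adjusted p of IL8 ranged from 1.695e-05 to 1 over the alternatives and that of CXCL1 from 0.00769 to 1. With a pseudocount of 0.1 RPKM, 164 genes passed 2-fold in Huh1 against 54, 422 in Huh7 against 182, and 1 member in Huh7 against 0 (CCL2). The members called for cell line were 9 of 9 under the alternatives, except 9 of 10 without the filter (IL6 was not called) and 7 of 7 with at least 1 RPKM in both lines. Of 280 values of single genes under the alternatives, 10 lost the limma call (IL8, CXCL1 and CDCA8). The other 270 kept their side of the limma threshold or, for untested values within or between lines, moved by less than the counting interval allows. Among these, CCL2 (1.11) and IL6 (2.06) passed 2-fold in Huh7 with a pseudocount of 0.1 RPKM, and 2 uncalled values lost their sign with quantile normalization, CXCL3 over both lines (-0.05) and CXCL5 in Huh1 (0). The cell line is the replicate block here: without it, 0 genes were called. Leaving out a library was not possible, since it leaves no residual degree of freedom. Depth limits CXCL1, CXCL3, CXCL5, CCL2 and IL6 in Huh1, where no library gave over 18 reads.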
